A study of Mus musculus with 5 samples.

Results

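The genes of the POU family encode transcription factors that bind DNA through a POU-specific domain joined by a linker to a homeodomain. They are lineage regulators, and most of them are expressed in a few cell types only, such as pituitary cells, neurons or pluripotent cells. In cells where such regulators are silent, their CpG-rich starts are typical sites of Polycomb Repressive Complex 2 (PRC2), which trimethylates lysine 27 of histone H3 (H3K27me3), and the mark can spread from there into broad domains. The 9 POU genes described here were listed by symbol (Pou1f1, Pou2f3, Pou3f1, Pou3f2, Pou3f3, Pou4f1, Pou4f2, Pou4f3 and Pou5f1). They were chosen with earlier results of these data known, so their counts beside those of all genes are descriptive. All 9 were found among the 22350 protein-coding genes of the GENCODE vM1 annotation of the mouse mm9 genome, and the 5′ end of each gene model was taken as its start.

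H3K27me3 was profiled by ChIP-Seq in mouse embryonic fibroblasts (MEFs) that carried a floxed allele of Eed, a PRC2 subunit gene, which was left in place in all 3 lines used here. Lentivirus was used to express H3.3 K27M, the histone mutant of diffuse midline glioma that inhibits PRC2, human EZHIP, the PRC2 inhibitor of PFA ependymoma, or H3.3 K27R, an H3.3 with arginine at the same residue that served as the reference. Per the labels and methods the lines were stably transduced, and whether they are clonal is not given in the sources used here. The transgenes were driven by an EF1a promoter with puromycin selection, and the MEFs came from a single embryo. Each line had 1 library and 1 list of peak positions without heights or counts, so depth was unknown, no value has an error between replicates, and all comparisons describe these libraries. Parental cells and cells with Eed deleted by Cre were part of the series and were not analysed here. There were 12845 peaks in K27R, 3736 in K27M and 4992 in EZHIP. In all they covered 582.1 Mb, 51.0 Mb and 36.5 Mb, so that EZHIP had more peaks than K27M but less covered length genome-wide. As a check of the labelled cell type, the starts of 8 fibroblast genes were looked up. Those of Col1a1, Col1a2, Thy1, Twist1, Prrx1, Vim and Fn1 lay outside the peaks of every list, and that of Pdgfra lay in a peak of all 3. Over all protein-coding genes 30.1%, 9.02% and 7.73% of starts lay in K27R, K27M and EZHIP peaks. A start outside the peaks is thus common and does not identify the cell type. No list held a peak on the last 7730553 bp of chromosome 7, where 167 protein-coding genes but no POU gene start, and without those genes the share of starts in K27R peaks would be 30.4%.

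Of the 9 POU starts, 8 lay in a K27R peak, 7 in a K27M peak and 5 in an EZHIP peak. Over all 22350 protein-coding genes these shares were 30.1%, 9.02% and 7.73%. The start of Pou5f1 was in no peak, that of Pou1f1 in a K27R peak alone, and those of Pou2f3 and Pou3f1 in K27R and K27M peaks. Pou3f2, Pou3f3, Pou4f1, Pou4f2 and Pou4f3 had their starts in peaks of all 3 lists. Of the 8 members with the start in a K27R peak, 7 kept a K27M peak there, where 29.9% of all 6735 such genes did, and 5 kept an EZHIP peak, where 25.6% did. Both were kept at 5 of the 8, against 21.9% of the 6735 genes, and neither at 1 of the 8, against 66.5%. In bulk chromatin, fewer cells with the mark and less mark per cell cannot be told apart, and a stretch outside the peaks may still carry mark below the calling threshold.

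The starts of the members differed in sequence. The 200 bases before the most upstream start in GENCODE or RefSeq are printed 5′ to 3′ on the strand of the gene, from the mm9 genome, with every CG dinucleotide in capitals. They show a start in a K27R peak alone (Pou1f1), a start in no peak (Pou5f1), the outer of the annotated starts of Pou2f3, in K27R and K27M peaks without an island, a start that the EZHIP peak just missed (Pou3f1), and a pair of starts in peaks of all 3 lists (Pou3f3 and Pou4f1).
Pou1f1, chr16:65520647-65520846, plus strand: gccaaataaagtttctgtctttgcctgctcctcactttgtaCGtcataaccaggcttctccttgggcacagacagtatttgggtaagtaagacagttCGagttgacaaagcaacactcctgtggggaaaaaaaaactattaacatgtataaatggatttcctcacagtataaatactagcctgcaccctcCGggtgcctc
Pou5f1, chr17:35642777-35642976, plus strand: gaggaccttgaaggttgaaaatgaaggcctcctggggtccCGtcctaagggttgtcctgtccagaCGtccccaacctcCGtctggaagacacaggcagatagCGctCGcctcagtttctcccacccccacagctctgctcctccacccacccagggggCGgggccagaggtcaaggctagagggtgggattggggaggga
Pou2f3, outer start, chr9:43018453-43018652, minus strand: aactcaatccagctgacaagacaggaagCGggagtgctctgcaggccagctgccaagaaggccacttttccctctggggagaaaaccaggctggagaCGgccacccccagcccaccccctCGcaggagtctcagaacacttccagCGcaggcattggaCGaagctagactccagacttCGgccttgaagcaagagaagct
Pou3f1, chr4:124334689-124334888, plus strand: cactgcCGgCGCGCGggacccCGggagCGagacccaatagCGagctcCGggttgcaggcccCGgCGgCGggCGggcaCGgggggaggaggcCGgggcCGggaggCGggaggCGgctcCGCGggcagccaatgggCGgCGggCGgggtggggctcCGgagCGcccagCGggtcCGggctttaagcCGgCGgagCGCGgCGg
Pou3f3, chr1:42752413-42752612, plus strand: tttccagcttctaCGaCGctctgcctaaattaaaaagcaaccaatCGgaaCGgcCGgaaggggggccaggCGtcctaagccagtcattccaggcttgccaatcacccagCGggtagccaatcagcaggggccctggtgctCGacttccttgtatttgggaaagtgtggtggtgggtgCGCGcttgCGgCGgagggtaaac
Pou4f1, chr14:104867217-104867416, minus strand: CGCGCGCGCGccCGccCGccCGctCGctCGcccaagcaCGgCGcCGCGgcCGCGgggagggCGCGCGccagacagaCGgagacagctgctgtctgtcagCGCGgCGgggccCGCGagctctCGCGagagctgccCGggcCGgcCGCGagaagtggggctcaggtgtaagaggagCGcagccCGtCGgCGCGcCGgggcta

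In these 200 bases Pou1f1 had 3 CG dinucleotides, Pou5f1 and the outer start of Pou2f3 had 6 each, Pou3f3 had 12, Pou3f1 had 31 and Pou4f1 had 37. The windows were set before the most upstream of the GENCODE and RefSeq starts, RefSeq starts having been placed in mm9 by an exact match of the promoter sequence. At Pou3f3 and Pou5f1 this was the RefSeq start, 1378 and 5 bp upstream of the GENCODE start. At Pou3f1 it was the start (124334889) of a second GENCODE model that bears the same symbol and is typed as a pseudogene. All other values use the start of the protein-coding model. Over 1 kb either side of the GENCODE start, the ratio of observed to expected CG was 0.25 at Pou2f3, 0.26 at Pou5f1 and 0.31 at Pou1f1. At the other 6 members it ran from 0.65 at Pou4f3 to 0.97 at Pou4f1. The median over the 6735 genes with the start in a K27R peak was 0.37, with quartiles of 0.20 and 0.59, so that 3 members lay between these quartiles and 6 above the upper one.

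**Figure D1:**
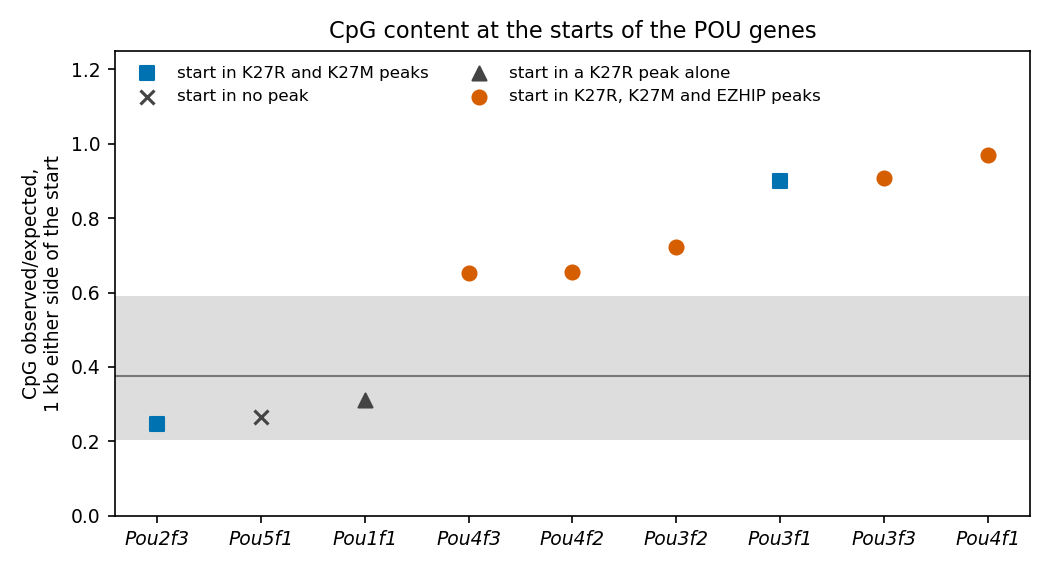
CpG observed to expected ratio in 1 kb either side of the start (y axis, no unit) for the 9 POU genes in rising order (x axis). The marker gives the lists with a peak over the start, the line and grey band give the median and quartiles of the 6735 genes with the start in a K27R peak. The 6 members at 0.65 or above are the 5 with the start in peaks of all 3 lists and Pou3f1.

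The start lay in a CpG island in 6 of the 9 members, where 45.9% of all protein-coding genes and 35.2% of genes with the start in a K27R peak had one. K27R and K27M peaks held all 6 starts with an island, and EZHIP peaks held 5 of the 6, the exception being Pou3f1. Among all genes with the start in a K27R peak and in an island, 52.1% kept a K27M peak and 44.1% an EZHIP peak. Of the 3 starts without an island, that of Pou5f1 lay in no peak and those of Pou1f1 and Pou2f3 lay in K27R peaks. Of these 2, 1 lay in a K27M peak (Pou2f3) and 0 lay in an EZHIP peak, and over all genes with the start in a K27R peak and in no island 17.8% kept a K27M peak and 15.6% an EZHIP peak. The octamer ATGCAAAT, the best known POU binding sequence, and its reverse complement ATTTGCAT were searched from 250 bases before to 50 after the GENCODE start. They were in 0 of the 9 members' windows and in 1.73% of those of all protein-coding genes.

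The peaks around each start are drawn in the map of the 9 loci. The K27R peaks were the widest at each member with a start in a peak, and the K27M and EZHIP peaks lay inside them, mostly around the start.

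**Figure D2:**
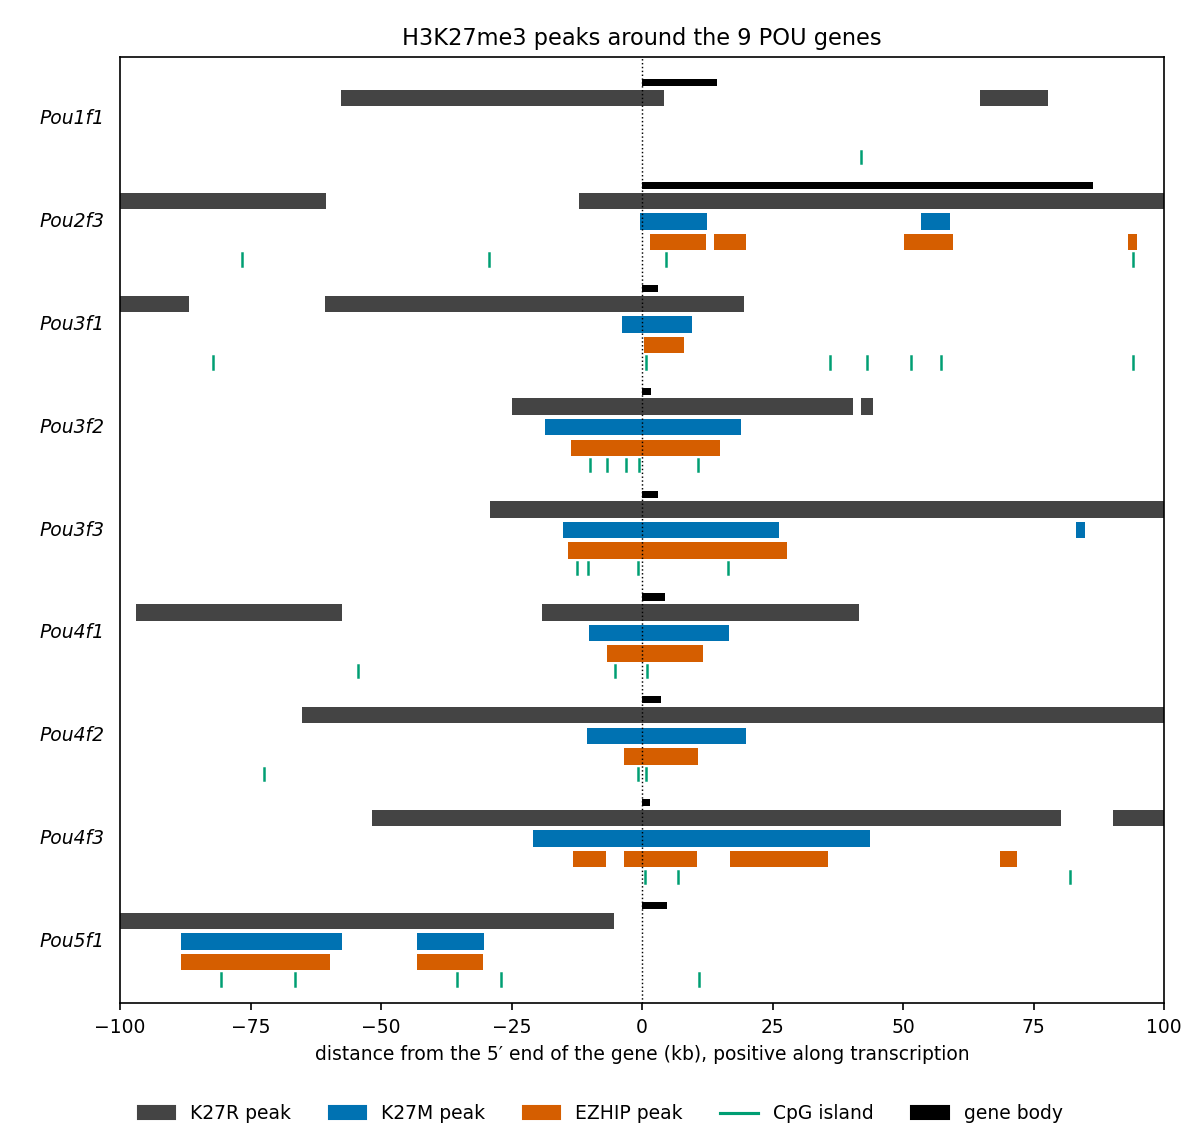
Peaks of the K27R, K27M and EZHIP lists, CpG islands and gene bodies within 100 kb of the start of each POU gene, against distance from the start in kb (x axis, positive along transcription). Peaks that run beyond 100 kb are drawn to the edge. At Pou3f2, Pou3f3, Pou4f1, Pou4f2 and Pou4f3 all 3 colours cross the dotted line at the start, at Pou2f3 and Pou3f1 the EZHIP peak begins downstream of it, and at Pou1f1 no K27M or EZHIP peak is in view.

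Pou3f1, Pou3f2 and Pou3f3 are class III genes with a single exon in the annotation. Pou3f2 (Brn2) and Pou3f3 (Brn1) act in neural progenitors and cortical neurons, and Pou3f1 (Oct6) in myelinating Schwann cells. Pou3f3 (ENSMUSG00000045515.2) lies on chromosome 1 from 42753991 to 42757052, plus strand. It was in a K27R region of 183.2 kb (42724801 to 42908000) that held no other protein-coding start. The K27M peak at its start spanned 41.4 kb (42738801 to 42780200) and the EZHIP peak 42.0 kb (42739801 to 42781800). It was thus the one member where the EZHIP peak at the start was no narrower than the K27M peak. They reached 15.2 and 14.2 kb upstream of the start and 26.2 and 27.8 kb downstream, and each touched 4 of the 5 islands of the region. Elsewhere in the region the lists differed: K27M had a peak of 1.6 kb (42837201 to 42838800) and EZHIP a peak of 9.6 kb (42896801 to 42906400), with no overlap between them.

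Pou3f2 (ENSMUSG00000052621.2) lies on chromosome 4 from 22413791 to 22415480, minus strand. Its K27R region spanned 65.4 kb (22375001 to 22440400) and held 5 islands and no other protein-coding start. The K27M peak spanned 37.4 kb (22396601 to 22434000) and the EZHIP peak 28.4 kb (22400601 to 22429000), and both touched all 5 islands. These peaks covered 57.2% and 43.4% of the region, the highest shares among the 9 members in both lists. Around the start they were close to symmetric, the K27M peak reaching 18.5 kb upstream and 18.9 kb downstream and the EZHIP peak 13.5 and 14.9 kb.

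Pou3f1 (ENSMUSG00000078236.3) lies on chromosome 4 from 124334896 to 124337899, plus strand. A K27R region of 80.2 kb (124274201 to 124354400) covered it together with the start of 3100002H09Rik. The K27M peak spanned 13.4 kb (124331001 to 124344400), from 3.9 kb upstream of the start to 9.5 kb downstream. The EZHIP peak spanned 7.8 kb (124335201 to 124343000) and began 305 bp downstream of the start, which is less than 2 of the 200 bp bins on which the peaks were called. It covered 89.8% of the gene and touched the island of 3416 bp (124334026 to 124337441) that spans the start and most of the exon. Pou3f1 had less residual cover than the other class III members in both lists.

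Pou4f1 (Brn3a), Pou4f2 (Brn3b) and Pou4f3 (Brn3c) are class IV genes needed in sensory neurons, retinal ganglion cells and hair cells of the inner ear, respectively. All 3 had their starts and whole gene bodies in peaks of all 3 lists, and in each of them the EZHIP peak at the start lay inside the K27M peak. Pou4f1 (ENSMUSG00000048349.6) lies on chromosome 14 from 104862737 to 104867216, minus strand, in a K27R region of 60.8 kb (104825601 to 104886400). Its K27M peak spanned 26.8 kb (104850601 to 104877400) and its EZHIP peak 18.4 kb (104855601 to 104874000), or 44.1% and 30.3% of the region. Both touched the 2 islands of the region.

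Pou4f2 (ENSMUSG00000031688.1) lies on chromosome 8 from 80956908 to 80960551, minus strand. It had the widest K27R region of the 9 genes, of 314.6 kb (80711001 to 81025600), which also held the start of Ttc29. The K27M peak spanned 30.4 kb (80940601 to 80971000) and the EZHIP peak 14.2 kb (80949801 to 80964000). They covered 9.66% and 4.51% of the region, the lowest shares among the 7 members where a peak remained. Both touched the islands near the start, and the third island of the region, 102846 bp from the start, was in neither.

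Pou4f3 (ENSMUSG00000024497.2) lies on chromosome 18 from 42554251 to 42555747, plus strand, in a K27R region of 132.0 kb (42502601 to 42634600) shared with the start of Gm16415. A single K27M peak of 64.6 kb (42533401 to 42598000) was the widest K27M peak at any of the 9 starts. In EZHIP the same stretch was broken into 3 peaks of 6.4 kb (42541001 to 42547400), 14 kb over the start (42550801 to 42564800) and 18.6 kb (42571201 to 42589800), and another of 3.2 kb lay farther downstream (42622801 to 42626000). Only the peak over the start touched the islands, 2 in number. The lists left different gaps between neighbouring peaks, and joining peaks up to 10000 bp apart in every list turned the first 3 EZHIP peaks into 1 of 48.8 kb without changing the K27M peak.

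Pou2f3 (Skn-1a), a regulator of epidermal differentiation and of tuft cells, is the longest of the 9 genes. It lies on chromosome 9 from 42932022 to 43018452, minus strand (ENSMUSG00000032015.6), and all of its 86.4 kb were in a K27R region of 113.8 kb (42916801 to 43030600) that also held the start of Tmem136. The K27M peak at the outer start spanned 12.8 kb (43006001 to 43018800) and reached 348 bp upstream of it. The nearest EZHIP peak spanned 10.8 kb (43006201 to 43017000) and ended 1452 bp downstream of the outer start. The other annotated transcript of Pou2f3 starts farther inside the gene, and that inner start was in peaks of all 3 lists.

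Pou2f3 was also the member with the most EZHIP peaks inside the gene. Besides the peak at the inner start, EZHIP had peaks of 6.0 kb (42998601 to 43004600) and 9.4 kb (42958801 to 42968200) in the gene, and K27M had 1 of 5.6 kb (42959401 to 42965000). These 3 peaks touched no annotated exon of Pou2f3 and no island. Together EZHIP peaks covered 26.2 kb of the gene body (30.3%) and K27M peaks 18.1 kb (20.9%), the one member where EZHIP peaks covered more of the gene body than K27M peaks did.

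Pou1f1 (Pit-1), which directs growth hormone, prolactin and thyrotropin cells of the pituitary, lies on chromosome 16 from 65520847 to 65535250, plus strand (ENSMUSG00000004842.9). A K27R peak of 61.8 kb (65463201 to 65525000) covered 57.6 kb upstream of the start and the first 4.2 kb of the gene, or 28.8% of its body, with 2 of its 7 exons. It held no island and no other protein-coding start. No residual peak was near: the closest K27M peak lay 4914 kb from the start and the closest EZHIP peak 5840 kb.

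Pou5f1 (Oct4), the regulator of pluripotent cells, was the one member with no peak over its start or body in any list. It lies on chromosome 17 from 35642982 to 35647721, plus strand (ENSMUSG00000024406.9). The nearest K27R region, of 245.0 kb (35392601 to 35637600), ended 5382 bp upstream of its start and covered genes of the H2-D and H2-Q class I histocompatibility families, whose near-identical copies can share reads. In that region the nearest K27M peak (35599801 to 35612800, 13 kb) and the nearest EZHIP peak (35599801 to 35612600, 12.8 kb) began at the same position, held the start of H2-Q10 and ended 30.2 and 30.4 kb from Pou5f1. The starts of its 7 annotated transcripts were outside all peaks.

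Summed over the 8 K27R regions that held a member's start, 1011.8 kb in all, K27M peaks covered 234.0 kb (23.1%) and EZHIP peaks 190.6 kb (18.8%). The 8 regions had a median width of 97.0 kb, against 53.6 kb over the 3623 K27R regions with a protein-coding start. A residual peak remained in 7 of the 8 regions in both lists, where 49.2% of the 3623 regions kept a K27M peak and 48.9% an EZHIP peak. Among those that kept a peak, a median of 15.2% of the region was covered in K27M and 11.7% in EZHIP. That is a median per region, unlike the summed shares above. These shares were not matched on the width of the region, and the members' regions were wider. K27M had 9 peaks in the 8 regions, of which 7 touched an island. EZHIP had 14 peaks, of which 8 touched an island and 6 did not. Of the 20 islands in these regions, 17 were in K27M peaks and 18 in EZHIP peaks. The same counts were not taken over the islands and peaks of all K27R regions. These island counts therefore give no comparison with other regions.

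A fixed window of 50 kb either side of the start puts long and short genes on 1 scale. All 9 members had some cover in it in K27R, and 8 of the 9 had some in K27M and in EZHIP. Pou5f1 is among these 8 through peaks over the start of H2-Q10. No cover was found at 36.0%, 75.7% and 74.8% of all protein-coding genes in K27R, K27M and EZHIP. Of the 6735 genes with the start in a K27R peak, 48.6% had none in K27M and 48.6% none in EZHIP. In K27R the covered length ran from 44.6 kb at Pou5f1 to the whole window at Pou4f2 and Pou4f3, with a median of 67.8 kb. The median over the 6735 genes with the start in a K27R peak was 71.6 kb, above that of the members. In K27M the members ran from 0 kb at Pou1f1 to 64.6 kb at Pou4f3 with a median of 26.8 kb, against a median of 1.47 kb over the 6735 genes. In EZHIP they ran from 0 kb at Pou1f1 to 42.0 kb at Pou3f3 with a median of 16.8 kb, against 1.2 kb. The 2 sets are not matched. The medians of the 9 members include Pou5f1, whose start was in no K27R peak. The start lay in an island at 6 of the 9 members and at 35.2% of the 6735 genes.

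**Figure D3:**
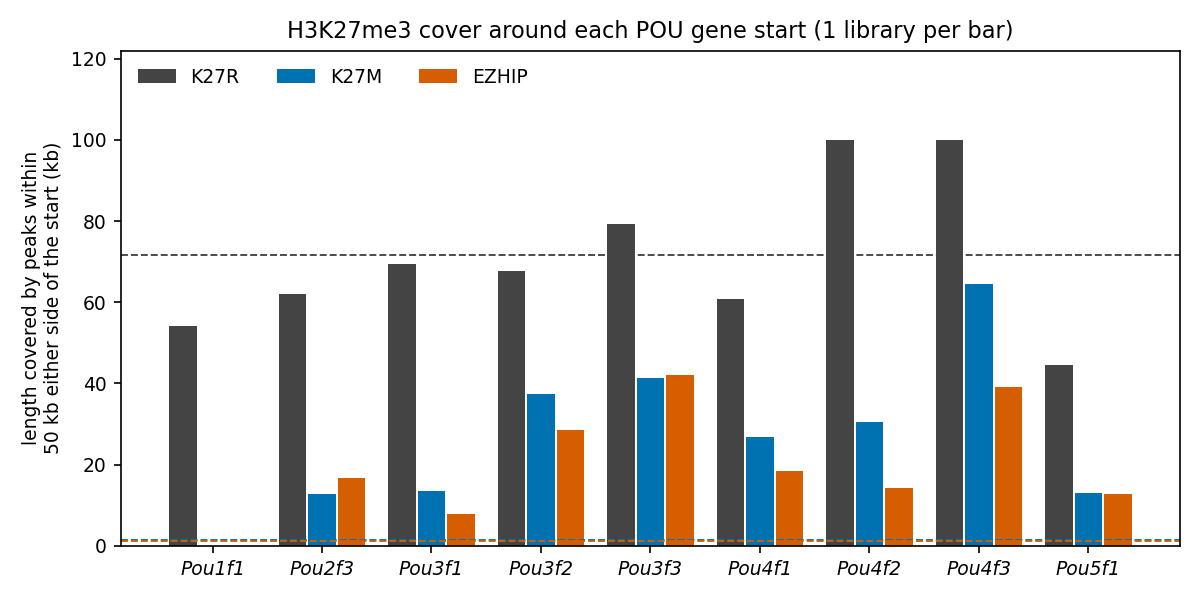
Length covered by peaks within 50 kb either side of the start (y axis, kb, from 0 to a possible 100) for each POU gene (x axis), with 1 bar per list and 1 library per bar. Dashed lines give the medians over the 6735 genes with the start in a K27R peak, which are 71.6 kb in K27R and lie close together in the other lists, at 1.47 kb for K27M and 1.2 kb for EZHIP. The K27M and EZHIP bars stand above their medians at every member but Pou1f1.

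By this measure the order in K27M was Pou4f3 (64.6 kb), Pou3f3 (41.4 kb), Pou3f2 (37.4 kb), Pou4f2 (30.4 kb), Pou4f1 (26.8 kb), Pou3f1 (13.4 kb), Pou5f1 (13 kb, around H2-Q10), Pou2f3 (12.8 kb) and Pou1f1 (0 kb). In EZHIP it was Pou3f3 (42.0 kb), Pou4f3 (39.0 kb), Pou3f2 (28.4 kb), Pou4f1 (18.4 kb), Pou2f3 (16.8 kb), Pou4f2 (14.2 kb), Pou5f1 (12.8 kb), Pou3f1 (7.80 kb) and Pou1f1 (0 kb). With 1 library per line it cannot be said which neighbours in either order differ. Within 20 kb of the start Pou5f1 had 0 kb in both lists, and Pou4f3 had the whole window in K27M and 23.5 kb in EZHIP. Pou4f3 had more K27M cover than 97.4% of the 6735 genes, and Pou3f3 had more EZHIP cover than 95.4% of them.

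K27M peaks covered more of this window than EZHIP peaks at 6 members and EZHIP peaks more at 2. Among the 6 is Pou5f1 by only 0.20 kb, the width of a bin, in the peaks over the start of H2-Q10. The differences were largest at Pou4f3, with 25.6 kb more in K27M, and Pou4f2, with 16.2 kb more in K27M. The 2 members with more in EZHIP were Pou2f3, where K27M minus EZHIP was -4.0 kb, and Pou3f3, where it was -0.60 kb. Over the 1476 genes with the start in peaks of all 3 lists, K27M covered more at 73.0% and EZHIP more at 25.1%. Of the 5 members among them, K27M covered more at 4 and EZHIP more at 1, a split near that of these genes.

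**Figure D4:**
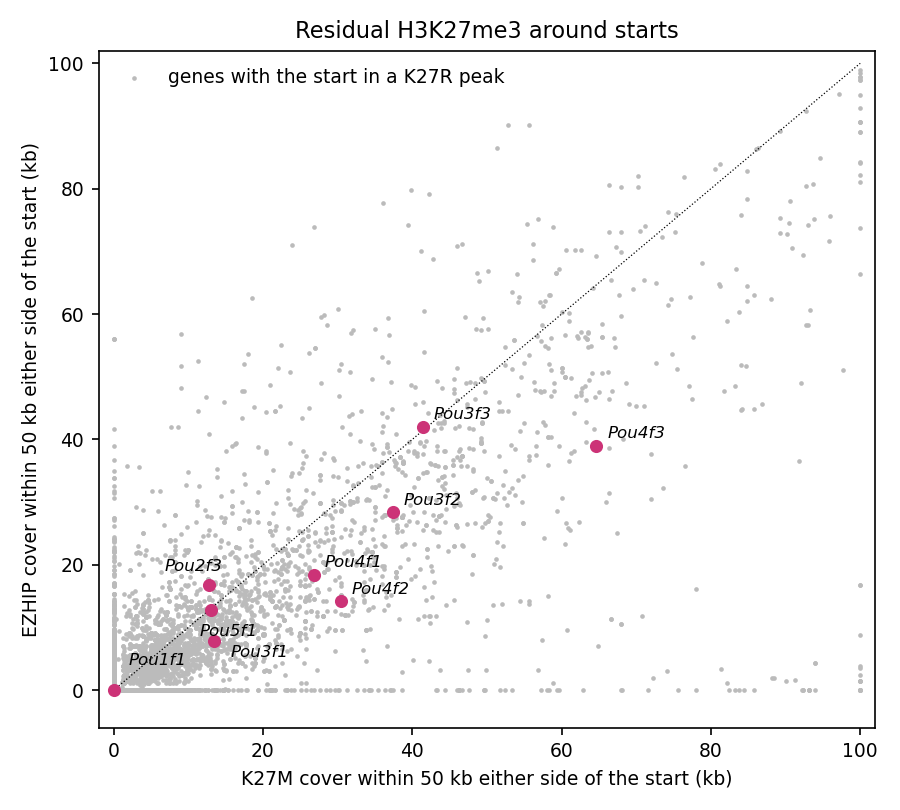
K27M cover (x axis) against EZHIP cover (y axis) within 50 kb either side of the start, in kb, for the 6735 genes with the start in a K27R peak (grey) and the 9 POU genes (labelled; Pou5f1 has no K27R peak at its start). The dotted line marks equal cover. Pou3f3 at 41.4 and 42.0 kb lies next to the line, while Pou4f3 at 64.6 and 39.0 kb and Pou4f2 at 30.4 and 14.2 kb lie below it.

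At all 7 members with the start in a K27M peak, the peak reached farther downstream of the start than upstream, and so did all 5 EZHIP peaks that held a start. Over all genes with the start in a peak of that list, 60.6% of the K27M peaks and 63% of the EZHIP peaks did so. At Pou3f2 the K27M peak reached 18.5 kb upstream and 18.9 kb downstream, a gap of less than 2 bins, and at Pou2f2, a POU gene outside the 9, the K27M peak reached 20.5 kb upstream and 2.51 kb downstream. At 4 of these 5 the EZHIP peak lay wholly inside the K27M peak, and at Pou3f3 it ended 1.6 kb beyond the K27M peak on the downstream side. Gene bodies were wholly in K27R peaks at 7 members, wholly in K27M peaks at 6 and wholly in EZHIP peaks at 5, where 20.1%, 2.78% and 1.82% of all protein-coding gene bodies were. These shares were not matched on gene length, and 7 of the 9 members span less than 5 kb. Over the 123.0 kb of the 9 bodies, K27R peaks covered 108.0 kb, K27M peaks 35.4 kb and EZHIP peaks 43.3 kb, a sum that Pou2f3 dominated through its length.

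Other POU genes were looked up for comparison. Of 4 such genes, 3 had the start in a K27R peak, 2 in a K27M peak and 1 in an EZHIP peak. These counts were 8, 7 and 5 for the 9 members. Pou2f2 (Oct2), a B cell factor, had its start in peaks of all 3 lists, with a K27M peak of 23.0 kb and an EZHIP peak of 3.2 kb there. Pou3f4 (Brn4), on chromosome X, was in a K27R region of 73.6 kb and kept a K27M peak of 6.8 kb over its start, while the nearest EZHIP peak lay 5048 kb away. Pou6f1 had its start in a K27R peak alone, and Pou2f1 (Oct1), which most cell types express, had its start outside the peaks of every list.

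Partners and targets of the 9 factors, also chosen with earlier results of these data known, were counted as lists. Of the 36 genes listed, 35 were matched and 31 were used, since 4 start on the end of chromosome 7 without peaks. Starts lay in K27R peaks for 24 of the 31, in K27M peaks for 15 and in EZHIP peaks for 13, where the shares of all protein-coding genes were 30.1%, 9.02% and 7.73%. Pituitary genes had 5 of 6 starts in K27R peaks and 1 in K27M and EZHIP peaks, that of Lhx3, a LIM homeobox factor. Gh and Tshb, which encode growth hormone and the beta subunit of thyrotropin and are targets of Pou1f1, were in K27R peaks alone. The start of Prl, the prolactin gene, was in no peak and lay 1540 kb from the nearest K27R peak. Sensory and retinal genes had 7 of 7 starts in K27R peaks, 6 in K27M peaks and 5 in EZHIP peaks, among the latter that of Isl1. Neural genes had 7 of 8 starts in K27R peaks and 4 in peaks of both other lists, with Sox2 among them. Tuft cell genes had 3 of 4 in K27R peaks, 3 in K27M peaks and 2 in EZHIP peaks. Sox9 was in a K27M but no EZHIP peak. Pluripotency genes had 2 of 6 starts in K27R peaks, near the share of all genes, and 1 in K27M and EZHIP peaks, that of Lin28a, and the start of Nanog was 21.9 kb from the nearest K27R peak.

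The genes most alike in covered length within 50 kb were found by the sum of absolute differences over the 3 lists, for the 3 members with the longest EZHIP cover. For Pou3f3 they were Npm1 and H2-Q10, with sums of 4.41 and 4.58 kb, of which Npm1 had its own start outside all peaks. For Pou4f3 they were Kcnk18 and Barhl2 (2 and 2.2 kb), and for Pou3f2 Sp8 and Gm6320 (1.00 and 2.12 kb). The likeness is of length only, over 3 libraries, and says nothing of where in the window the peaks lay.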

How the data were processed

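H3K27me3 ChIP-Seq peak lists of 3 MEF lines (K27R, K27M, EZHIP; 1 library each) were used. Per the labels and methods, the authors aligned reads to mm9 with Bowtie 1.0.0 and called broad peaks per library with MOSAiCS-HMM. Neither which library served as background nor whether the spike-in scaling entered the calls is given in the sources used here. The deposited values are chromosome, start and end of each peak on a 200 bp grid, with no count, score or p-value. The methods name a joining distance between peaks, but neighbours less than 10000 bp apart remained in all 3 lists. Examples are Pou3f2 in K27R, Pou2f2 in K27M and Pou4f3 in EZHIP. Depth and its precision are unknown.

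Each peak was taken as whole bins and positions count from 1. Starts, bodies and transcripts came from GENCODE vM1 (mm9). A start was in a peak when its base was covered. RefSeq promoters (GRCm38.p6) of 6 members were matched exactly in mm9. CpG islands (26796) were stretches longer than 200 bp scoring 17 per CG and -1 per other base, a G+C share of 50% or more and a CG ratio (observed over expected) above 0.6. Some looked-up items are not reported here. No test was run, because peaks and genes of 1 library are not replicates. The background was all protein-coding genes. Members, lists and naming rules were chosen with earlier results of these data known. The rules named all members, the other POU genes, up to 8 partner genes beyond counts and the 2 most alike genes of 3 members. Prl was named in addition to these. Alternatives were minimum widths of 2000 and 5000 bp, joining at 10000 bp, any transcript start, a distance of 5000 bp, a window of 20 kb and, added after the data were examined, RefSeq starts. Interval tools were tested on simulated data, with 0 disagreements in 1050 comparisons. Python 3.11.15, numpy 2.4.6, numba 0.67.0 and matplotlib 3.10.9 were used.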

Additional observations from a re-analysis of the deposited data

How the results depend on the processing

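No paired analysis was possible because each line had 1 library, and no library could be left out. Of 78 values of the main counts and sums under the alternatives, 77 stayed within 1.5-fold of the reported value. The exception follows from its construction: with a window of 20 kb in place of 50 kb the median K27R cover was 39.5 kb. Of 270 values of single genes, 254 stayed within 1.5-fold and 16 did not, 13 of them cover in this smaller window, which can hold no more than about 40.0 kb. There Pou5f1 had 0 kb in K27M and in EZHIP, and Pou4f3 had 40.0 kb in K27M and 23.5 kb in EZHIP. Counting any annotated transcript start put Pou2f3 in EZHIP peaks, which made 6 members, and allowing 5000 bp to the start put both Pou2f3 and Pou3f1 there, which made 7. RefSeq starts, for the 6 members with one, and minimum widths changed no count of starts. Because the lists carry no counts, what depth limits cannot be given.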
